A study of Mus musculus with 2 samples.

Results

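Microglia and macrophage genes are a set of 34 genes that cover the growth factor receptor of these cells and its ligands, their transcription factors, surface receptors, complement and lysosomal products, and markers that divide microglia from macrophages at the brain's borders. Members were taken from a fixed list by their GENCODE mouse symbols, and all 34 were matched to 1 Ensembl gene each among the 43346 genes of the tables. The data are total RNA-seq of hindbrain, the embryonic precursor of medulla, pons and cerebellum, from B6NCrl mouse embryos at embryonic day 12.5. The labels describe healthy embryos with no transgene, deletion or treatment, and the sexes were pooled. Replicate 1 is a pool of 120 embryos and replicate 2 a separate pool of 88 embryos, each started from 10 ng of RNA longer than 200 nt. There is 1 group, so every comparison between samples is between these 2 libraries, and values are mean ± SD over them (n = 2) unless given per library.

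Microglia are the resident macrophages of the brain. They descend from yolk sac progenitors that enter the neural tube in mid-gestation and depend on the receptor Csf1r, which is activated by the ligands Csf1 and Il34. Related macrophages settle in the meninges and around vessels, and several markers separate them from microglia in the adult. In whole tissue, a gene's level reflects both how many cells express it and how much RNA each holds, and fewer cells of a type cannot be told apart from less RNA per cell. Several members are also made by other cells, which is said where each is described.

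Expected counts, which are estimated numbers of fragments per gene, summed to 31633169 in replicate 1 and 29766460 in replicate 2, and ERCC spike-in RNA took 3.41% and 4.36% of them. A count of 3, taken as the most that a count of 0 allows, corresponds to 0.158 and 0.171 TPM (transcript abundance scaled for length and to a shared total per library) at an effective length of 1 kb. These limits and the intervals below cover counting error only, since amplified fragments are not independent molecules. The libraries differed in their content of other tissues. Erythroid genes summed to 13549 and 10589 TPM, mesenchymal genes to 1393 and 1809 TPM, and skeletal muscle genes to 62.7 and 299.9 TPM in replicates 1 and 2, and all 8 muscle genes were called higher in replicate 2 by edgeR's exact test with Benjamini-Hochberg adjustment. The part of this difference in the values of the members was not tested.

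Most members were detected, at levels below the typical gene. Of the 34 members, 31 reached 1 TPM in both libraries (91.2%, against 79.5% of the 19209 genes tested), and the exceptions were Il34, Cd14 and Itgam. The members together had 387.5 and 391.5 TPM in replicates 1 and 2, and held 0.0439% and 0.0444% of the expected counts. Their median was 6.61 and 6.99 TPM, below the medians of 10.7 and 10.8 TPM of all genes tested. Tgfbi, Pf4 and Tmem119 together made up 36.76% and 34.01% of the summed TPM, and 26 members had a mean between 2 and 20 TPM. The highest member, Tgfbi, was 91.4 times the lowest, Cd14, by mean TPM. In the order of mean TPM, 20 of the 33 neighbouring members had overlapping ranges, so much of the order among them is within the spread of the libraries.

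**Figure D1:**
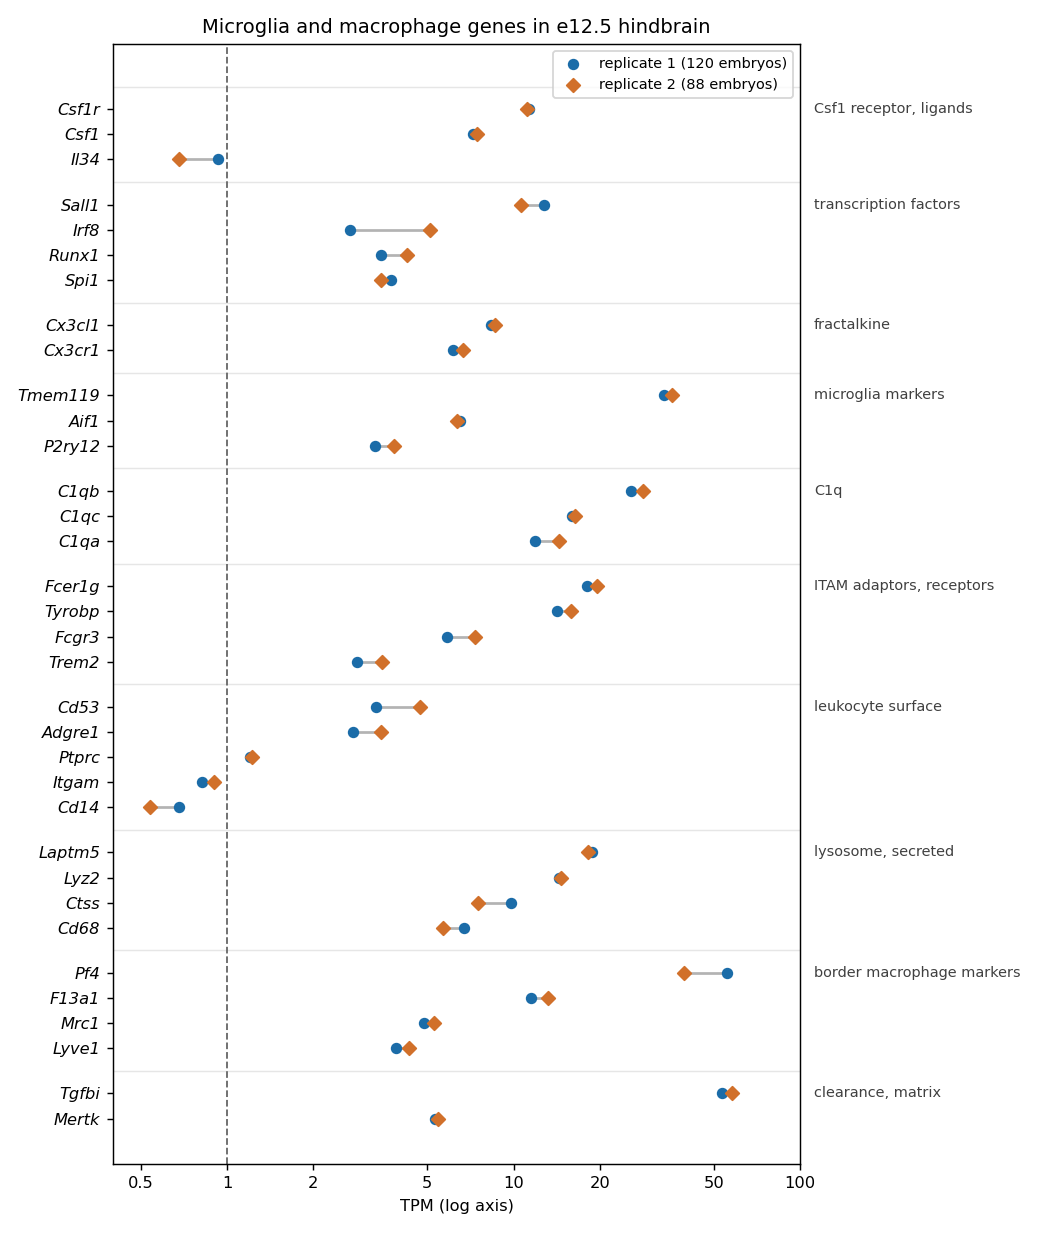
TPM of the 34 members on a log axis, with circles for replicate 1 and diamonds for replicate 2, grouped by role. The dashed line marks 1 TPM. Il34, Itgam and Cd14 lie below it in both libraries, and Tgfbi, Pf4 and Tmem119 lie highest.

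Start-site sequences of 25 members were found among RefSeq promoter windows (250 bases before to 50 bases after a start, GRCm38.p6), in 32 windows, and 9 members had none. The word searched for first was GAGGAAG on either strand, a purine-rich core bound by PU.1, the factor encoded by the member Spi1. It stood in 13 of 32 member windows (40.6%), from 11 genes, and in 13.6% of all 32851 windows. With a further base, GAGGAAGT, which contains the first word, the shares were 15.6% and 3.20%, and the genes were C1qc, Cd53, Ctss, F13a1 and Pf4. The other words came closer to the share of all windows. TGTGGT, a Runx core, stood in 18.8% of member windows and 16.8% of all windows, TGACTCA, an AP-1 site, in 3.13% and 5.20%, TATAAA in 15.6% and 13.6%, and CACGTG, an E-box, in 6.25% and 7.15%. The words were chosen after the expression values were known, some genes have several overlapping windows, and a match is a description of letters, not of binding.

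The 8 members below have GAGGAAG, or its reverse complement CTTCCTC, wholly within the 100 bases before a RefSeq start site. Those 100 bases are printed for 1 start of each gene, 5′ to 3′ on the gene's strand, with the word in capitals, to show where it falls against the start, which follows the last base.
Fcgr3, chr1:171059404-171059503, minus strand: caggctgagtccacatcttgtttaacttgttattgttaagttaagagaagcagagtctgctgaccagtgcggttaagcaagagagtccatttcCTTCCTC
Mrc1, chr2:14229314-14229413, plus strand: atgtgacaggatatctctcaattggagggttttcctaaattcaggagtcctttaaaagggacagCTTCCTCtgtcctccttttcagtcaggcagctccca
Laptm5, chr4:130913216-130913315, plus strand: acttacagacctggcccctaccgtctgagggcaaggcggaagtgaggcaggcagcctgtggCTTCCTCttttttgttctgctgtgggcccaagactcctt
Pf4, chr5:90772335-90772434, plus strand: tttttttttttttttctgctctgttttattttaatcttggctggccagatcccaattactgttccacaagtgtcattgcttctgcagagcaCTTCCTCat
Itgam, chr7:128062540-128062639, plus strand: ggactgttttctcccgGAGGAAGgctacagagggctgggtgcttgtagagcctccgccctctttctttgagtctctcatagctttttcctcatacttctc
Cx3cl1, chr8:94772080-94772179, plus strand: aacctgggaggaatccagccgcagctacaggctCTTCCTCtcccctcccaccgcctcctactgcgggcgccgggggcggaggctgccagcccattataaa
F13a1, chr13:37050245-37050344, minus strand: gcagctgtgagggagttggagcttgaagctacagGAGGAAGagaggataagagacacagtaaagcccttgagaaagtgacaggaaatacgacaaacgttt
Trem2, chr17:48346301-48346400, plus strand: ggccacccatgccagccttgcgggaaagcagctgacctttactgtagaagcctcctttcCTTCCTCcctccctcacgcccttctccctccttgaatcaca
The word begins 7 bases before the start in Fcgr3 and 9 bases before it in Pf4. In Mrc1, Laptm5 and Trem2 it begins 36, 39 and 41 bases before the start. F13a1 and Cx3cl1 have it 66 and 67 bases before the start, and Itgam 84 bases before. The start used for F13a1 is that of F13a1-202, which had 0 counts in both libraries. All counts of F13a1 were given to F13a1-201. The Cx3cl1 and Laptm5 stretches lie inside the annotated spans of their leading transcripts, Cx3cl1-201 and Laptm5-207. They are not upstream of the starts of those transcripts. That 7 of the 8 genes encode proteins of macrophages follows from the choice of the list. The other, Cx3cl1, is a ligand made chiefly by neurons.

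Csf1r, the receptor on which microglia depend (chromosome 18, 61100598 to 61132149), had 11.3 TPM in replicate 1 and 11.2 TPM in replicate 2, from 979 and 898 expected counts. These levels nearly coincided, at 11.2 ± 0.106 TPM (SD, n = 2), and put the gene near the middle of all genes tested, at percentile 50.7. The ligand Csf1 (chromosome 3, 107741048 to 107760469) had 7.21 and 7.43 TPM, which was 63.8% and 66.6% of the Csf1r level. The second ligand, Il34, had 0.93 and 0.68 TPM from 17 and 16 counts, below 1 TPM in both libraries. Csf1 was thus the ligand of higher level by TPM in each library. On the scale of counts, the log2 ratio of replicate 2 over replicate 1 was -0.02 ± 0.20 (SE) for Csf1r and -0.17 ± 0.21 for Csf1, smaller than its standard error in both.

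Sall1, a zinc finger factor of microglial identity that neural progenitors also express, was the highest of the 4 transcription factors (chromosome 8, 89027235 to 89044162). It had 12.7 TPM in replicate 1 and 10.6 TPM in replicate 2, from 1244 and 959 counts, so replicate 2 was lower. Spi1, which encodes PU.1, the factor that specifies the myeloid lineage, had 3.73 and 3.44 TPM, close together at 3.58 ± 0.205 TPM. Irf8, which acts with PU.1 in microglial development, had 2.69 and 5.10 TPM, the widest relative gap of any member in TPM. Its counts did not share that gap, at 119 and 107.

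Runx1, a factor of blood and yolk sac progenitors that early microglia keep, had 3.46 and 4.24 TPM from 325 and 334 counts (chromosome 16, 92601466 to 92826149). Its transcripts use 2 start regions 128821 nt apart. The distal start accounted for 33.9% of the gene's TPM in replicate 1 and 28.4% in replicate 2, and the proximal start for 66.1% and 71.7%. The proximal start was the larger in both libraries, with 198 and 240 counts against 127 and 94.0. The 250 bases before the start of each RefSeq window are printed because the starts differ in use and in composition, with GC at 45.6% for the distal and 67.6% for the proximal one. CACGTG is in capitals where it occurs.
Runx1 distal start, chr16:92826075-92826324, minus strand: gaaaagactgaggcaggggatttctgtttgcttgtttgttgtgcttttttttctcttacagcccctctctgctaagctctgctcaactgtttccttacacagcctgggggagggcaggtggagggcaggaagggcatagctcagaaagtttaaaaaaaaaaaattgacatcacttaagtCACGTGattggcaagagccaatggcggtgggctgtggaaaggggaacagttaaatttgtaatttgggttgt
Runx1 proximal start, chr16:92697330-92697579, minus strand: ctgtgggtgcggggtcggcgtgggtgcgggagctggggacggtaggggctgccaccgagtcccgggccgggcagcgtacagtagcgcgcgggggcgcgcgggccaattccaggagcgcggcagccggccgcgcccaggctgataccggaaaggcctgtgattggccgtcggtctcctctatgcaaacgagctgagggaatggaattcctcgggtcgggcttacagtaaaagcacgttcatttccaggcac
The E-box word stood before the distal RefSeq start only, and the Runx core TGTGGT stood before neither in these 250 bases. That distal RefSeq start is the start of Runx1-207. It lies inside Runx1-201, which begins at 92826149. The E-box word therefore falls within the annotated span of Runx1-201, not before its start.

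The receptor Cx3cr1, which on microglia senses the neuronal chemokine fractalkine, had 6.13 TPM in replicate 1 and 6.65 TPM in replicate 2 from 364 and 361 counts (chromosome 9, 119901616 to 120069879). Its ligand Cx3cl1 (chromosome 8, 94772009 to 94782427) had 8.34 and 8.62 TPM. The ligand lay above the receptor in both libraries, and neither differed between libraries by more than its standard error, with log2 count ratios of 0.09 ± 0.21 for Cx3cr1 and -0.07 ± 0.21 for Cx3cl1. The annotated span of Cx3cr1 also overlaps Wdr48 at 54.7 and 59.5 TPM and Gorasp1 at 19.8 and 18.3 TPM, so fragments of those genes could affect its value.

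Of the 3 microglia markers, Tmem119, a membrane protein of adult microglia that osteoblast-lineage and other mesenchymal cells also make, was the highest (chromosome 5, 113793729 to 113800516). It had 33.5 TPM in replicate 1 and 35.6 TPM in replicate 2, from 1325 and 1327 counts. Aif1, which encodes the cytoskeletal protein Iba1, had 6.5 and 6.34 TPM from 72 and 67 counts (chromosome 17, 35170991 to 35176068). P2ry12, the purine receptor that guides microglial processes, had 3.29 and 3.82 TPM from 132 and 138 counts. Tmem119 therefore stood 9.72 times above P2ry12 by mean TPM, although both serve as markers of the same adult cell. The collagen-rich mesenchymal list, which could hold other sources of Tmem119, was also higher in replicate 2, and its part in the Tmem119 level was not tested.

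The 3 chains of C1q, the recognition molecule of the classical complement pathway, are encoded side by side on chromosome 4 and were expressed together. C1qb (136880129 to 136886187) had 25.8 TPM in replicate 1 and 28.2 TPM in replicate 2. C1qc (136889804 to 136893065) had 16.1 and 16.4 TPM. C1qa (136895917 to 136898803) had 11.9 and 14.4 TPM. All exceeded Csf1r in both libraries, and the order of the chains was the same in each. C1qb took 48.0% and 47.8% of the C1q sum, C1qc 29.9% and 27.8%, and C1qa 22.2% and 24.4%, so the shares moved by little between the pools. Their log2 count ratios were 0.11 ± 0.21, 0.01 ± 0.22 and 0.26 ± 0.23 (SE).

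Fcer1g and Tyrobp encode the small adaptors that carry activating motifs for myeloid receptors. Fcer1g (chromosome 1, 171229572 to 171234365) had 18.1 TPM in replicate 1 and 19.5 TPM in replicate 2, and Tyrobp (chromosome 7, 30413760 to 30417585) had 14.2 and 15.9 TPM. Trem2, the lipid-sensing receptor that signals through Tyrobp, had 2.84 and 3.47 TPM from 66 and 73 counts. Fcgr3, an activating receptor for antibodies, had 5.88 and 7.33 TPM. Both adaptors lay above both receptors in each library, and all 4 genes had a higher level in replicate 2, by log2 count ratios between 0.12 and 0.31 with standard errors between 0.24 and 0.31. Counts of Fcgr3 were fractional, at 137.56 and 159.63, and whether fragments were shared with related genes was not tested. The paralogues of Fcgr3 were lower, with Fcgr1 at 1.04 and 0.94, Fcgr2b at 0.40 and 0.35, and Fcgr4 at 0.36 and 0.20 TPM.

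Surface proteins of leukocytes were the lowest group. Ptprc, the pan-leukocyte phosphatase CD45, had 1.2 and 1.22 TPM from 86 and 87 counts. Adgre1, which encodes the macrophage antigen F4/80 (chromosome 17, 57358691 to 57483527), had 2.75 and 3.45 TPM. The tetraspanin Cd53 (chromosome 3, 106759921 to 106790149) had 3.30 TPM in replicate 1 and 4.70 TPM in replicate 2 from 103 and 135 counts. Cd53 was the highest of these 5 genes and also the most separated between pools. Itgam, the integrin chain CD11b, had 0.82 and 0.90 TPM from 69 and 54 counts, and Cd14, the co-receptor for bacterial lipopolysaccharide, had 0.68 and 0.54 TPM from 19 and 14 counts. Neither reached 1 TPM, while both stood above the level of 3 counts for their own lengths, which was at most 0.0498 TPM for Itgam and 0.116 TPM for Cd14.

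Lysosomal and secreted products reached higher levels. Laptm5, a lysosomal membrane protein of blood cells (chromosome 4, 130913125 to 130936141), had 18.8 TPM in replicate 1 and 18.2 TPM in replicate 2. Lyz2, the macrophage lysozyme (chromosome 10, 117277331 to 117282321), had 14.4 and 14.7 TPM, and its intestinal paralogue Lyz1 had 0 counts in both libraries. The log2 count ratios were 0.05 ± 0.20 for Laptm5 and 0.01 ± 0.22 for Lyz2. The protease Ctss, cathepsin S (chromosome 3, 95526786 to 95556403), had 9.78 and 7.51 TPM from 233 and 165 counts, lower in replicate 2. Cd68, a lysosomal glycoprotein of phagocytes, had 6.72 and 5.66 TPM from 105 and 103 counts, so its counts were nearly equal while its TPM was lower in replicate 2.

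Among the markers of border macrophages, Pf4 was far the highest (chromosome 5, 90772435 to 90773383). This chemokine gene is also a product of megakaryocytes and platelets. It had 55.5 TPM in replicate 1 and 39.4 TPM in replicate 2 from 513 and 336 counts, the lowest log2 ratio of any member. F13a1, the coagulation factor chain made by macrophages and megakaryocytes (chromosome 13, 36867178 to 37050244), had 11.5 and 13.2 TPM from 825 and 873 counts. Mrc1, the mannose receptor, had 4.87 and 5.28 TPM, and Lyve1, a hyaluronan receptor shared with lymphatic endothelium, had 3.89 and 4.31 TPM. These 3 genes were all somewhat higher in replicate 2, opposite to Pf4.

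Markers of megakaryocytes and platelets were measured beside Pf4. That list of 8 genes, which includes Pf4, had 86.6 and 67.8 TPM in all in replicates 1 and 2, and 6 of the 8 reached 1 TPM in both. Gp1bb, a subunit of the platelet receptor for von Willebrand factor, had 11.9 and 10.6 TPM, the platelet chemokine Ppbp had 7.85 and 6.29 TPM, and the integrin Itga2b had 5.84 and 6.91 TPM. The lowest, Gp1ba, had 0.08 and 0.31 TPM. Platelet-lineage RNA was thus measured in both pools, without a common direction among its genes (3 positive and 5 negative log2 ratios). Its part in the Pf4 level was not tested.

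The median log2(TPM+1) of the microglia markers P2ry12, Tmem119 and Aif1 was below that of the border macrophage markers Mrc1, Lyve1, Pf4 and F13a1 by 0.19 in replicate 1 and 0.36 in replicate 2, a difference of -0.28 ± 0.12 (SD, n = 2). With 3 and 4 genes, its sign rests on single members. Without Pf4 it was 0.29, and without Tmem119 it was -0.63, both chosen after seeing the data. The sign thus turned with the removal of Pf4, a gene that other cells also make.

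Tgfbi, a secreted matrix protein induced by TGF-beta that macrophages and mesenchymal cells make, was the highest member (chromosome 13, 56609523 to 56639562). It had 53.5 TPM in replicate 1 and 58.1 TPM in replicate 2 from 2616 and 2619 counts. Mertk, a receptor for the uptake of dying cells (chromosome 2, 128698956 to 128802894), had 5.31 and 5.47 TPM, with a log2 count ratio of 0.01 ± 0.21. The related receptors Axl and Tyro3 had 28.8 and 32.1 TPM, and 22.1 and 22.3 TPM, several times the Mertk level. Their ligands Gas6 and Pros1 had 16.7 and 18.2 TPM, and 16.4 and 18.1 TPM.

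Between the pools no member was called by edgeR's exact test with a common dispersion, at a Benjamini-Hochberg adjusted p of 0.05 over all genes tested, where 1.57% of genes were called. The lowest adjusted p from edgeR was 0.411 for Pf4, followed by 0.827 for Cd53 and 0.995 for Ctss, and it was 1 for the other 31 members. At an unadjusted p below 0.05, edgeR gave 1 of the 34 members, Pf4, and 6.69% of all genes. The common dispersion corresponds to a coefficient of variation of 9.02% between the pools. An exact binomial test, which allows for counting error alone, called 6 of 34 members (17.6%), against 20.4% of all genes. It called 3 members higher in replicate 2 (8.82%, against 10.7% of all genes) and 3 lower (8.82%, against 9.68%), so the members' shares were near the background. The number of members called by the binomial test depended on the setting. It was 2 without the count filter, and 18 with ERCC scaling, where 67.7% of all genes were called and 5 of the 6 members were among the calls.

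Pf4, Sall1 and Ctss were the members lower in replicate 2 by the binomial test, with log2 count ratios of -0.51 (95% counting interval -0.71 to -0.31), -0.27 (-0.40 to -0.15) and -0.40 (-0.69 to -0.10). Cd53, F13a1 and Tgfbi were higher, at 0.49 (0.11 to 0.88), 0.18 (0.04 to 0.32) and 0.10 (0.02 to 0.18). Exact binomial adjusted p-values were 9e-06 for Pf4 and 0.000142 for Sall1, and between 0.0364 and 0.0496 for the other 4. With the dispersion included, the standard errors were 0.21 for Pf4, 0.19 for Sall1, 0.24 for Ctss, 0.26 for Cd53, 0.20 for F13a1 and 0.19 for Tgfbi. Over all members the log2 ratio ran from -0.51 to 0.49 with a median of 0.08, against 0.00 over all genes tested, and 24 members lay within 0.2 of 0. A positive ratio was seen in 23 of 34 members (67.6%), against 49.5% of all genes.

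**Figure D2:**
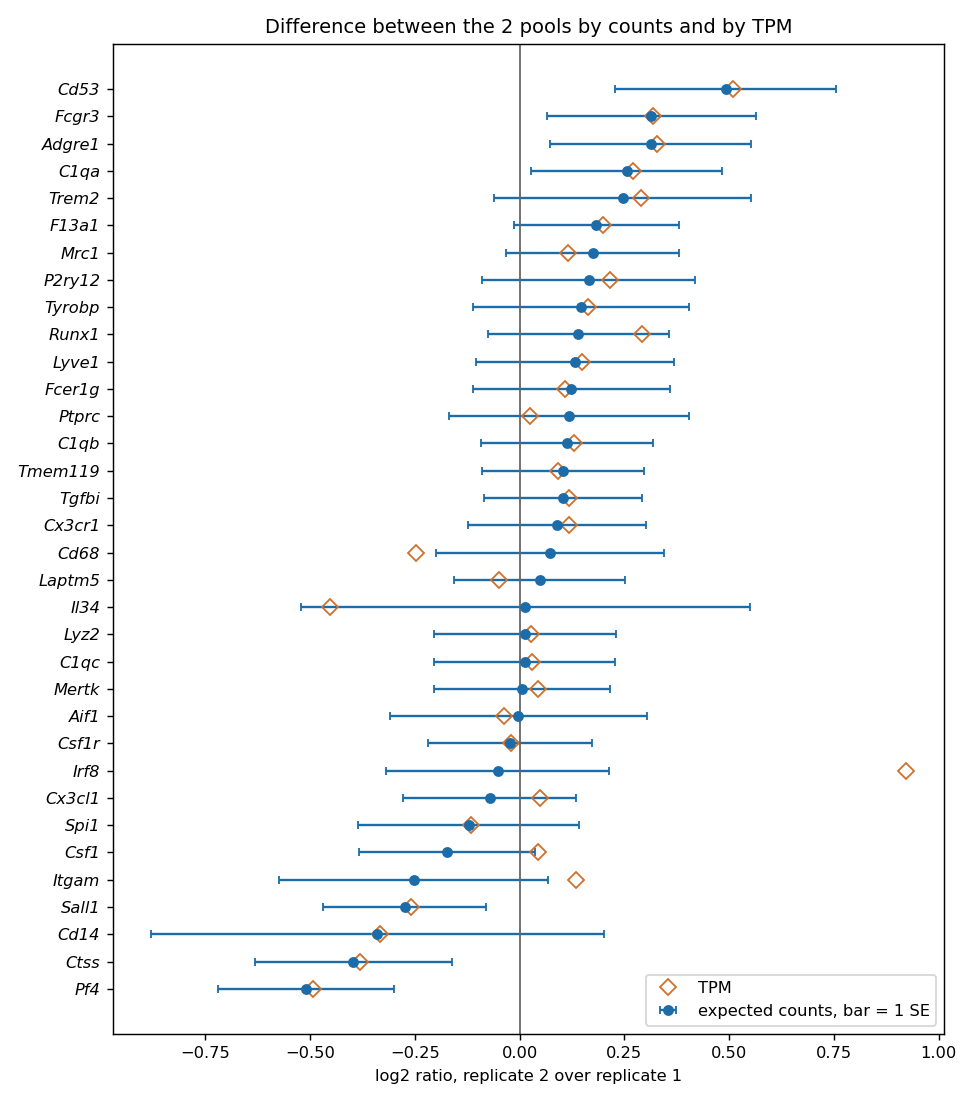
log2 ratio of replicate 2 over replicate 1 for each member, from expected counts (circles, bars of 1 SE with the common dispersion) and from TPM (open diamonds). Counts and TPM lie together for most members, and the diamond of Irf8 lies 0.98 above its circle.

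The scale mattered for a few members. The log2 ratio from TPM and that from counts differed by more than 0.15 in 6 of 34 members. Irf8 had a ratio of 0.92 by TPM and -0.05 by counts. The shift was also upward by TPM in Itgam (0.39), Csf1 (0.22) and Runx1 (0.15), and downward in Il34 (-0.47) and Cd68 (-0.32). TPM divides by an effective length that depends on which transcripts the fragments are assigned to. All 6 genes have several annotated transcripts, as do 24 of all 34 members.

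Transcript shares were examined in the 23 members with several transcripts and at least 50 expected counts in each library. Of these, 20 had the same leading transcript in both, and 10 had a leading share of at least 90% in both. Csf1r-202 held 95.7% and 100% of its gene's TPM, Tmem119-201 97.1% and 99.3%, Cx3cr1-202 87.0% and 92.2%, and Spi1-201 89.0% and 90.3%. Each of these 4 genes was thus read mainly as 1 transcript in both pools. Other members were mixed, with Csf1-201 at 58.9% and 42.2%, Laptm5-207 at 40.7% and 47.1%, P2ry12-202 at 53.4% and 74.1%, and Trem2-201 at 83.2% and 83.0%. In Aif1 the coding transcript Aif1-203 held 57.2% and 63.3%, and Aif1-205, a retained-intron transcript, 41.6% and 36.7%. By the deposited posterior mean share the order was the other way round, with Aif1-205 at 36.2% and 31.2% and Aif1-203 at 23.2% and 29.5%.

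The leading transcript differed in Fcgr3, Irf8 and Itgam. In Fcgr3, Fcgr3-204 led in replicate 1 with 61.3%, and Fcgr3-201 in replicate 2 with 83.7%. In Irf8, the 2847 nt Irf8-201 held 79.4% of the TPM in replicate 1 and 22.1% in replicate 2, where the 597 nt Irf8-204 led with 28.2%. By expected counts Irf8-201 led in both libraries, with 93.4% and 50.7%. In Itgam, Itgam-203 held 56.7% in replicate 1 and 0% in replicate 2. Cd68 kept its leading transcript, yet the share of Cd68-203, a non-coding form of 612 nt, was 49.7% in replicate 1 and 14.8% in replicate 2. Irf8, Itgam and Cd68 are thus among the 6 members whose TPM and count ratios differed, and with 54 to 119 counts each, the precision of these shares is low.

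**Figure D3:**
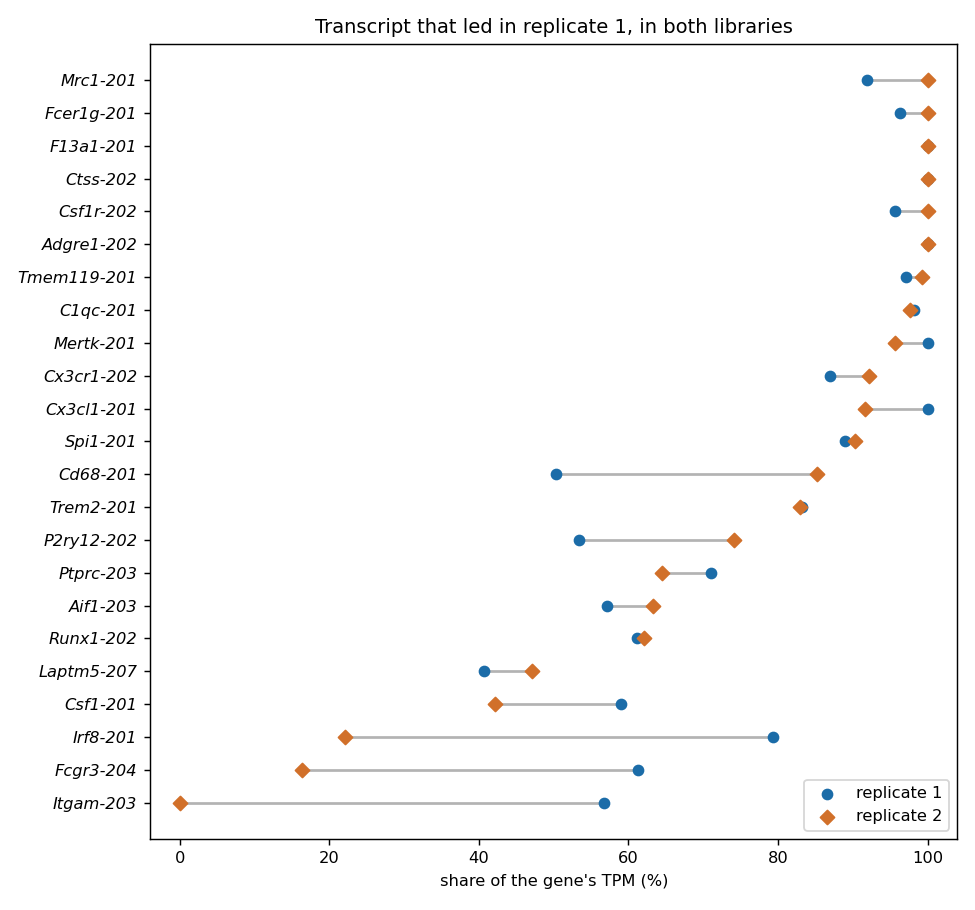
Share of the gene's TPM held by the transcript that led in replicate 1, for 23 members, with circles for replicate 1 and diamonds for replicate 2. Most pairs lie close together, while Irf8-201, Fcgr3-204 and Itgam-203 are above 50% in replicate 1 and at 22.1%, 16.3% and 0% in replicate 2.

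Annotated neighbours bear on a few members, since whether the libraries keep strand is not stated in the labels. In all, 13 members overlap the span of another gene and 21 do not. Only 4 overlap a gene at 1 TPM or more in both libraries. Csf1r overlaps Hmgxb3 on the opposite strand, at 17.2 and 17.1 TPM, and P2ry12 overlaps Med12l, at 3.96 and 4.02 TPM. Ctss overlaps the pseudogene Hmgb1-ps5, at 3.37 and 3.59 TPM, and Cx3cr1 is described above.

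Markers of other blood cells were measured to see what else the pools held. Lymphocyte and mast cell genes did not reach 1 TPM in both libraries for any of 7 and 6 genes, and Ms4a1, Mcpt4, Tpsb2 and Mrgprb1 had 0 counts. Of 7 monocyte genes, 2 did. These were the matrix gene Fn1 at 119.8 and 139.2 TPM, which mesenchyme also makes, and Plac8 at 1.48 and 2.39 TPM from 18 and 27 counts. The chemokine receptor Ccr2, which marks monocytes, had 0.27 and 0.31 TPM from 16 and 20 counts, above the level of 3 counts for its length, and Chil3 had 0 counts. Granulocyte genes summed to 45.7 and 33.5 TPM, with the calprotectin chain S100a8 at 20.3 and 8.78 TPM, the protease Prtn3 at 9.60 and 11.4, S100a9 at 8.30 and 6.35 and Ngp at 3.58 and 2.48, and Ly6g at 0 counts. S100a8 was the only gene of that list called by edgeR, with a log2 ratio of -1.23 ± 0.31 and an adjusted p of 0.00953. Of 6 genes of blood progenitors, which include the member Ptprc, 5 reached 1 TPM in both libraries. The highest, Cd34, at 36.4 and 40.4 TPM, and Kit, at 30.3 and 32.8 TPM, are shared with vessels and neurons. Gata2 had 19.35 and 14.98 TPM, and Myb had 3.25 and 3.91 TPM from 210 and 240 counts. Flt3 was lowest at 0.10 and 0.11 TPM.

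**Figure D4:**
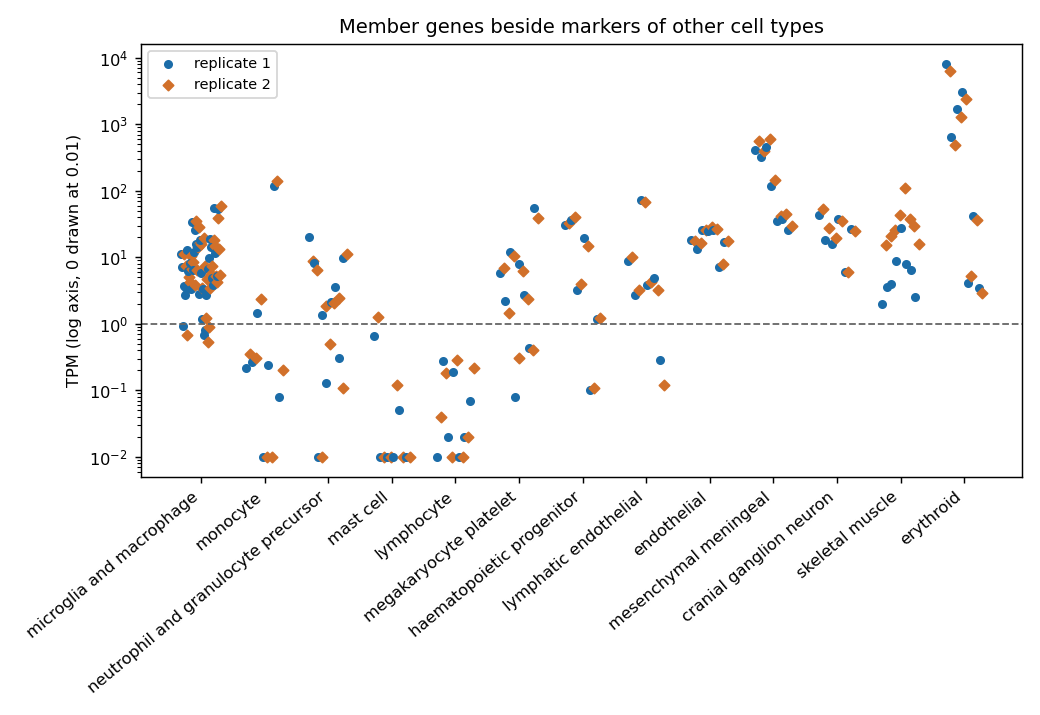
TPM of the 34 members and of marker genes of other cell types on a log axis, where each gene has a circle for replicate 1 and a diamond for replicate 2, and 0 is drawn at 0.01. The dashed line marks 1 TPM. Mast cell and lymphocyte genes lie mostly below it, erythroid genes lie highest, and the skeletal muscle genes are higher in replicate 2.

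Genes of the same pathways that are not members were described by lists. Of 12 further myeloid transcription factors, 9 reached 1 TPM in both libraries, among them Fli1 at 19.8 and 21.3, Mef2c at 8.15 and 13.5, and Maf at 6.04 and 6.83 TPM. Tfec was lowest at 0.25 and 0.44 TPM. Mef2c, which neurons, muscle and vessels also express, was called higher in replicate 2 by edgeR, with a log2 ratio of 0.74 ± 0.20 and an adjusted p of 0.0154. The pathway lists held 106 genes that are not members, of which 74 reached 1 TPM in both libraries and 96 had enough counts to be tested. Of those 96, Mef2c was the only gene called in either direction by edgeR. The binomial test called 16 of the 96 higher and 5 lower, where it called 10.7% and 9.68% of all genes.

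Signalling genes downstream of Csf1r and Tyrobp were detected in 11 of 12 cases. Many cells express the highest, Grb2 at 118.8 and 127.8 TPM and Cbl at 20.2 and 21.9 TPM. The kinase Syk, which the adaptors recruit, had 3.31 and 3.18 TPM, and the lowest, Blnk, had 0.50 and 0.29 TPM. Of 12 further genes of adult microglia, 9 reached 1 TPM in both libraries. Among the highest were genes shared with other brain cells, Cst3 at 304 and 272 TPM, Tgfbr1 at 78.7 and 82.1 and Olfml3 at 15.9 and 17.0. The more restricted Fcrls had 6.39 and 8.18 TPM, Gpr34 1.97 and 2.71 TPM and Siglech 0.88 and 0.82 TPM, and the lowest, Gpr84, had 0.33 and 0.47 TPM.

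Of 12 genes of early or activated microglia, 9 reached 1 TPM in both libraries. Fabp5 at 442 and 433 TPM, Cd63 at 251 and 259, Apoe at 184 and 199 and Ctsb at 84.2 and 87.7 were highest, and all are made by many cells. The osteopontin gene Spp1 had 29.4 and 28.2 TPM, Igf1 17.1 and 26.2, and Lpl 9.66 and 10.2. Ms4a7 had 2.12 and 2.96 TPM, and Lgals3 1.66 and 1.28. Gpnmb, Clec7a and Itgax, which mark activated microglia in the adult, stayed below 1 TPM. They had 0.40 and 0.25, 0.27 and 0.18, and 0.07 and 0.03 TPM. Genes of this list thus lay on both sides of 1 TPM. Of 10 further border macrophage genes, 6 were detected. Dab2, at 51.6 and 65.3 TPM, and Stab1, at 28.9 and 24.8 TPM, were highest and are shared with mesenchyme and vessels. Cd36 had 2.79 and 2.93 TPM and Ms4a6c 1.44 and 2.09 TPM, Cd163 had 0.04 and 0.03 TPM, and Cd209f had 0 counts.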

How the data were processed

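Total RNA-seq of 2 pools of e12.5 hindbrain was used, with genes and transcripts on mm10 as deposited. For the aligner and the quantifier, the sources used here give no name. The authors deposited expected counts per gene (estimated, not always whole), TPM and FPKM, which per the file headers are scaled for length and depth, and a percent share for each transcript. Posterior mean TPM and share were used as alternatives. Names and coordinates came from GENCODE M21 (42462 genes matched). Entries that name no gene held 0.000107% and 0.000114% of counts and were left out.

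Expected counts were rounded. Genes with at least 10 summed counts (19209) were scaled by TMM and compared by the exact test of edgeR 4.0.16 (R 4.3.3) with a common dispersion. Its dispersion comes from the same 2 libraries, since 1 group leaves no contrast, and a quasi-likelihood fit had no residual degrees of freedom. P-values measure only the difference between these pools. The exact binomial test was also run in R 4.3.3, and both tests used Benjamini-Hochberg adjustment at 0.05. The counting intervals used scipy 1.17.1. Over 19216 genes, the chi-square per degree of freedom between the libraries was 8.26, so they are not duplicates. The test was run first on simulated counts with known changes. Alternatives were DESeq2 1.42.0 size factors, ERCC scaling, trended dispersion, no filter, other thresholds and pseudocounts, and each library alone.

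Detection was 1 TPM in both libraries, and medians used log2(TPM + 1). All 34 members were named, and from other lists the 4 highest by mean TPM, the lowest and markers at 0. A few genes of those lists are not reported here. Further genes named from them were chosen after their values were seen. The members and lists were chosen with earlier results of these data known.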

Additional observations from a re-analysis of the deposited data

How the results depend on the processing

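No paired analysis was possible because there is only 1 group. The number of members called was 0 with DESeq2 size factors, ERCC scaling, trended dispersion or no count filter, and 6 by the exact binomial test, which leaves out dispersion. Members detected ranged from 30 to 34 over the thresholds and units tried, and was 31 in each library alone. The median log2(TPM+1) of the members was 2.96, 2.79 with a pseudocount of 0.1, 3.09 with TPM rescaled without ERCC, 3.06 over detected members, and 2.10 with counts per kb of the longest transcript. It was 2.93 to 3.00 in single libraries. Microglia minus border markers was -0.36 to -0.19 in single libraries, 0.29 without Pf4 and -0.63 without Tmem119. The same leading transcript was found in 20 of 23 members, 19 of 23 by posterior mean share, 21 of 23 by expected counts and 17 of 19 at a minimum of 100 counts.

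ERCC scaling moved the median log2 ratio of all genes to -0.37. This scaling changes only the library factors, so it moved the log2 ratio of every gene by the same amount. Under it 1 of 34 members had a positive ratio. That 23 lay above the shifted median, as many as were positive under TMM, follows from the shared shift and is no separate result. The 22 members whose sign turned had ratios of -0.36 (Il34), -0.23 (Runx1), -0.28 (Cx3cr1), -0.20 (P2ry12), -0.27 (Tmem119), -0.11 (C1qa), -0.26 (C1qb), -0.36 (C1qc), -0.22 (Tyrobp), -0.12 (Trem2), -0.25 (Fcer1g), -0.054 (Fcgr3), -0.25 (Ptprc), -0.055 (Adgre1), -0.30 (Cd68), -0.32 (Laptm5), -0.36 (Lyz2), -0.19 (Mrc1), -0.24 (Lyve1), -0.19 (F13a1), -0.36 (Mertk) and -0.27 (Tgfbi). These signs turned through that shared shift, not through changes of single genes. Why the ERCC share of counts differed, at 3.41% in replicate 1 and 4.36% in replicate 2, was not tested. DESeq2 size factors turned no sign. Over all genes, edgeR called 301 with TMM, 62 with ERCC scaling, 127 with trended dispersion and 292 of 24847 without the filter. Depth limits Il34 and Cd14, with 14 to 19 counts each.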

Other observations

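Complement genes beyond C1q were detected in 8 of 14 cases, and regulators were among the highest. Cr1l, which protects cells from complement, had 30.9 and 34.2 TPM in replicates 1 and 2, the inhibitor Serping1 had 28.8 and 34.9, and the protease Masp1 had 12.04 and 11.12. The central component C3 had 0.61 and 0.95 TPM, and C4b was lowest at 0.02 and 0.01. The C1q protease genes C1ra, at 0.44 and 0.13 TPM, and C1s1, at 0.52 and 0.85 TPM, were far below the C1q chains. The edgeR exact test called none of the 13 tested after Benjamini-Hochberg adjustment, and the binomial test called 3 of them higher and 2 lower in replicate 2, against 10.7% and 9.68% of all genes tested.

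Inflammatory and antigen presentation genes were detected in 3 of 14 cases. These were Tlr2 at 1.95 and 1.65 TPM, the chemokine Ccl2 at 1.62 and 1.92, and Nos2 at 1.11 and 1.03. The cytokine genes Il1b, Tnf and Il6 had at most 3 counts in either library. Of TGF-beta pathway genes, on which adult microglia depend, all 10 were detected, with Smad2 at 55.8 and 54.7 TPM, Tgfb2 at 37.2 and 39.1, and Nrros, which presents TGF-beta on myeloid cells, at 7.89 and 8.53. The ligand Tgfb1 was lowest at 1.27 and 1.06.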
